A study of Mus musculus with 2 samples.

Results

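The miR-322, miR-503 and miR-450 cluster is a group of X-linked microRNA (miRNA) genes that lie on one strand within a few kilobases. Its 6 members, Mir322, Mir503, Mir351, Mir542, Mir450-1 and Mir450b, were taken by name from the 1973 gene IDs of the deposited tables, a rule that uses no measured value, although the cluster itself was picked with earlier results of these data known. They were measured by small RNA sequencing in the embryonic forebrain of B6NCrl mice at day 14.5 of gestation, with 2 biological replicates called replicate 1 and replicate 2 here. Both belong to 1 group, with no genotype, treatment or other tissue named, so conditions could not be compared. Per the labels each replicate was 1 forebrain and the collection dates differed, yet the sex is entered as pooled and both carry the same donor identifier. How far the spread between them is biological, and the sex of each embryo, which bears on an X-linked locus, are therefore not known.

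A miRNA gene is transcribed into a long primary transcript in which each miRNA forms a hairpin. The enzyme Drosha cuts the hairpin out, Dicer trims it to a duplex, and 1 of its arms (5p or 3p) is loaded into an Argonaute protein. The loaded miRNA recognises messenger RNAs mainly through its seed, here bases 2 to 8 from the 5′ end, and represses them. miR-322, the mouse counterpart of human miR-424, and miR-503 belong to the extended miR-15 and miR-16 family, known for repressing cell cycle genes such as cyclins D1 and E1 and Cdc25a. At this stage the forebrain holds dividing progenitors beside newly formed neurons.

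The mature sequences below show which members share a seed with each other and with genes elsewhere. They come from the RefSeq miRNA table (GRCm38.p6, the assembly called mm10) and are written 5′ to 3′ with the seed in capitals. Mature sequences of all 6 members were matched to that table. The first set holds the seed of miR-322-5p, with miR-503-5p and family members from other loci.
miR-322-5p: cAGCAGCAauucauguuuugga
miR-503-5p: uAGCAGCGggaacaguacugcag
miR-15a-5p: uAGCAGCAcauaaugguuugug
miR-16-5p: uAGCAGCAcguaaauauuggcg
miR-195a-5p: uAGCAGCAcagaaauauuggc

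miR-322-5p, miR-15a-5p, miR-16-5p and miR-195a-5p had the same seed, AGCAGCA. Between miR-322-5p and miR-503-5p the seed differed at its last base, A8G, counted from 1 at the 5′ end with the base of miR-322-5p first. Outside the seed they were less alike. Compared base by base from the 5′ end, miR-322-5p was identical to miR-503-5p at 11 of 22 positions, to miR-15a-5p at 15 of 22 and to miR-16-5p at 12 of 22.

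miR-351-5p has the seed of miR-125, the vertebrate counterpart of the worm miRNA lin-4. The second set shows that pair.
miR-351-5p: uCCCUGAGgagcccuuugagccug
miR-125b-5p: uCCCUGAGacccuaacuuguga

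The 2 sequences were identical over their first 8 bases and at 10 of 22 positions in all. The remaining members are shown by both arms where the arms bear on the counts. miR-542-3p, a miRNA known to repress the survivin gene Birc5, and the 5p arms of the miR-450 genes had seeds that the table gives to no miRNA outside the cluster.
miR-542-3p: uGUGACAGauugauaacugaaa
miR-450a-5p: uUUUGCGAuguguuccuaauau
miR-450b-5p: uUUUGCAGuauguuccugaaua
miR-450a-1-3p: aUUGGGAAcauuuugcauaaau
miR-450b-3p: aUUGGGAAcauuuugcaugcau

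miR-450a-5p and miR-450b-5p differed at 7 of 22 positions, and 2 of these, G7A and A8G, lie in the seed (miR-450a-5p first). The 3p arms of Mir450-1 and Mir450b had the same seed, UUGGGAA, and were identical over their first 18 bases, with A19G and A20C as the differences (miR-450a-1-3p first). The only other gene in the table with that seed was Mir6352, which had no count in either library.

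On mm10 the cluster spans chrX:53047997-53054349, 6353 nt on the minus strand, so transcription runs from Mir322 towards Mir450b. Mir322 (ENSMUSG00000065418.1) lies at chrX:53054255-53054349 and Mir503 (ENSMUSG00000076122.1) at chrX:53053984-53054054, with 200 nt between them. Mir351 (ENSMUSG00000065503.1) follows at chrX:53053255-53053353. After a gap of 3767 nt come Mir542 (ENSMUSG00000076140.1) at chrX:53049403-53049487, Mir450-1 (ENSMUSG00000065486.1) at chrX:53048154-53048244 and Mir450b (ENSMUSG00000076050.1) at chrX:53047997-53048078. A 7th gene, Mir450-2 (chrX:53048299-53048367), lies between Mir542 and Mir450-1 and is not one of the 6 members. In GENCODE M21 none of the 6 overlaps another annotated gene that is not a miRNA. The non-coding gene C430049B03Rik lies 696 nt upstream of Mir322 on the same strand, the lincRNA gene Gm28730 lies between Mir542 and Mir351, and the nearest protein-coding genes on each side are Plac1, 15645 nt upstream, and Hprt, 26337 nt downstream on the plus strand.

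The libraries held 18598385 and 20638071 reads in replicates 1 and 2, as the sum of the gene counts and the totals that name no gene. Of these, 7080317 and 7946585 were assigned to miRNA genes on their own strand. Levels are given as CPM, the count per 1000000 of these assigned counts. A read of a small RNA spans the whole mature miRNA, so CPM was not divided by gene length unless stated. Of the cell type markers, 5 of 6 neuron genes were detected (11388 ± 823 CPM summed, SD, n = 2), led by Mir137. In that list Mir124a-1 and Mir124a-2 stood at only 2.21 and 1.78 CPM. The 3 neural progenitor genes in the tables were also detected, led by Mir92b. The endothelial Mir126a stood at 22234 ± 185 CPM and the choroid plexus and ciliated list at 7364 ± 996, led by Mir449a (4268 CPM). The mural and stromal list, at 3832 ± 298 CPM, was mostly Mir143 (3612 CPM). The epithelial list, at 1881 ± 375 CPM, was mostly Mir203 (1294 CPM). The erythroid list summed to 468 ± 96.6 CPM, mostly Mir451a (457 CPM), and the myeloid Mir223 to 81.0 ± 7.13. The striated muscle list summed to 16.9 ± 4.20 CPM, mostly Mir206 (16.4 CPM), with Mir1a-1, Mir133a-1 and Mir133a-2 at 0 counts. Genes named as 1 of several copies, such as Mir124a-1 and Mir133a-1, may lack reads that match another copy, as set out below for Mir450-1. The marker sums and zeros therefore hold for the counts as deposited. In bulk tissue, fewer cells of a type and less RNA per cell cannot be told apart, and the part of each cell type in the level of the cluster was not tested.

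All 6 members passed the detection minimum of 10 counts in each library, which 20.2% of all 1973 genes did. Together they held 1.05% of the miRNA counts in each library, with 74179 counts in replicate 1 (1.048%, 95% Clopper-Pearson interval 1.040 to 1.055) and 83334 in replicate 2 (1.049%, 1.042 to 1.056). Intervals throughout cover the counting error of reads only and leave out further variation between libraries. Reads carry no molecular identifiers, so each read was counted as if independent. The cluster was dominated by its first gene. Mir322 held 88.9% of the cluster's counts in replicate 1 and 89.9% in replicate 2, a mean of 89.4% ± 0.681 (SD, n = 2).

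Mir322 stood at 9315 CPM in replicate 1 and 9425 CPM in replicate 2, a mean of 9370 ± 77.6 (SD, n = 2), from 65954 and 74896 counts. It ranked 18th by mean CPM among all genes, 19th in replicate 1 and 18th in replicate 2. Divided by the length of the gene model it ranked 21st. With 2 libraries, the genes whose levels lay closest to it on the log2(CPM + 1) scale were Mir181a-1 (8859 ± 754 CPM), Mir30a (10733 ± 1092 CPM) and Mir106b (7704 ± 280 CPM). The rank of Mir322 and the share of the cluster hold for the counts as deposited, which may lack reads that match several loci.

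Mir503, whose hairpin lies next to that of Mir322 and whose miRNA has nearly the same seed, was measured at 128 CPM in replicate 1 and 131 CPM in replicate 2, from 906 and 1044 counts. Its mean of 130 ± 2.42 CPM (SD, n = 2) was 72.3-fold below that of Mir322. The fold was 72.8 in replicate 1 and 71.7 in replicate 2, so the imbalance within this pair was nearly the same in both libraries. The gene nearest to Mir503 in level was Mir214 (135 ± 0.364 CPM), a mural and stromal marker.

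Mir351 was the second most abundant member. It had 5564 counts in replicate 1 and 5492 in replicate 2, or 786 and 691 CPM, a mean of 738 ± 67.0 (SD, n = 2). It held 7.50% and 6.59% of the cluster's counts, and Mir322 stood 12.7-fold above it by mean CPM. Among the members other than Mir322, Mir351 held 66.4% ± 1.81 of the counts. Its nearest gene in level was Mir7-1 (755 ± 56.1 CPM).

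Mir542 had 1445 and 1569 counts in replicates 1 and 2, or 204 and 197 CPM, a mean of 201 ± 4.70 (SD, n = 2). Mir351 stood 3.68-fold above it, and it stood 1.55-fold above Mir503. Its 2 libraries lay above both libraries of Mir503. The gene nearest to it was Mir485 (201 ± 5.01 CPM).

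The miR-450 genes were the lowest. Mir450b had 275 and 303 counts, or 38.8 CPM in replicate 1 (95% exact Poisson interval 34.4 to 43.7) and 38.1 CPM in replicate 2 (34.0 to 42.7), a mean of 38.5 ± 0.502 (SD, n = 2). Mir450-1 had 35 and 30 counts, or 4.94 CPM (3.44 to 6.87) and 3.78 CPM (2.55 to 5.39), a mean of 4.36 ± 0.826. Mir450-2, outside the 6, had 7 and 6 counts and did not reach the minimum. The nearest genes in level were Mir1198 for Mir450b (38.2 ± 0.669 CPM) and Mir669h for Mir450-1 (4.42 ± 0.737 CPM).

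**Figure D1:**
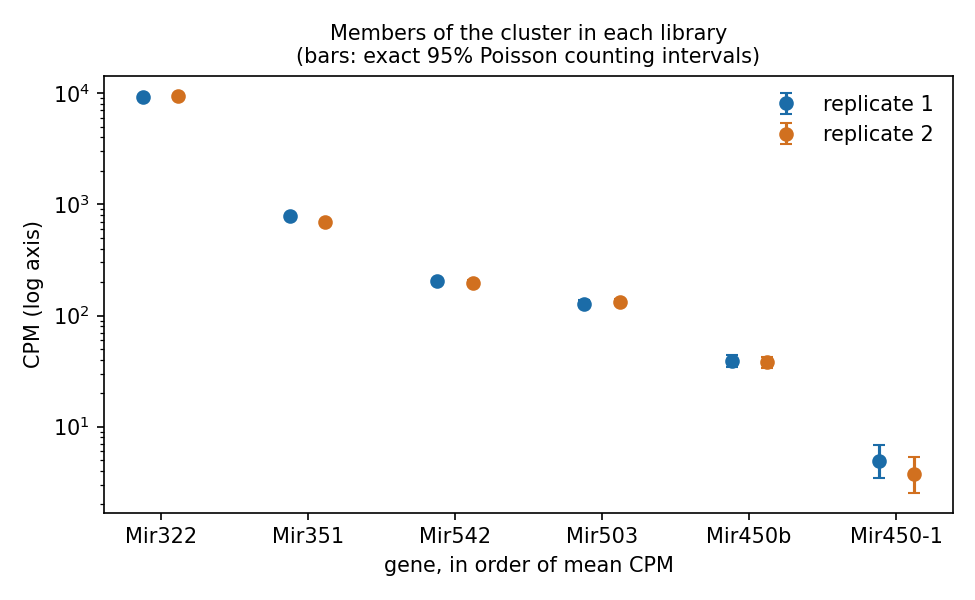
CPM of the 6 members (log axis) in each library, in order of mean CPM, with exact 95% Poisson counting intervals as bars. Mir322 sits near 9370 CPM and Mir450-1 near 4.36 CPM, and the libraries of neighbouring genes do not overlap.

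The order by level was therefore Mir322, Mir351, Mir542, Mir503, Mir450b and Mir450-1. The same order held in each library and with CPM divided by the length of the gene model. Counts on either strand gave it by construction, since the members had no opposite-strand counts. For each of the 5 pairs of neighbours in this order, both libraries of the higher gene lay above both libraries of the lower one. From Mir322 to Mir450-1 the means differed 2149-fold, 1884-fold in replicate 1 and 2497-fold in replicate 2. No count fell on the opposite strand of any of the 6 members or of Mir450-2, which leaves room for at most 3 counts, or 0.424 and 0.378 CPM in the 2 libraries.

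Along the strand the levels were not in the order of distance from Mir322. Mir503, which starts 295 nt after the first base of Mir322, was 72.3-fold lower than it, while Mir351, which starts at 996 nt, was 5.70-fold higher than Mir503. The difference across the gap of 3767 nt between Mir351 and Mir542 was 3.68-fold, smaller than that between the adjacent Mir322 and Mir503. Mir450b, the last gene, stood 8.83-fold above Mir450-1, which lies 75 nt upstream of it.

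**Figure D2:**
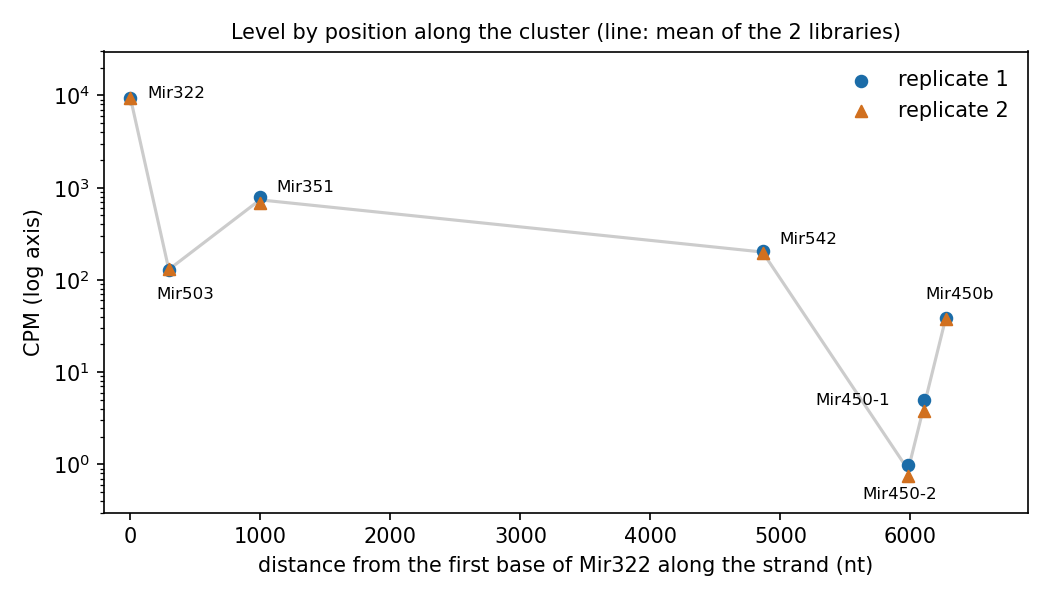
CPM (log axis) of the 6 members and Mir450-2 against the distance of the first base of each gene from that of Mir322, along the strand, in each library, with a line through the means. Mir503 at 295 nt lies below Mir351 at 996 nt, and Mir450b at 6271 nt lies above Mir450-1.

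The hairpin of Mir450-1 shares a run of 25 nt with that of Mir450-2, shown here in capitals because it contains the whole of miR-450a-5p.
Mir450-1 hairpin: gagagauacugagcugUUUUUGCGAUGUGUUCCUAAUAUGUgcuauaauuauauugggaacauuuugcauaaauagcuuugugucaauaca
Mir450-2 hairpin: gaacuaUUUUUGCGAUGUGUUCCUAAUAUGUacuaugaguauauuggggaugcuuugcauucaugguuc

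A read that lies within this run matches both loci. The deposited tables list multi-mapping reads in a total of their own, 43.3% of all reads in replicate 1 and 42.2% in replicate 2. How that total was defined is not stated. The read numbers given above add it to the gene counts as a separate class, but whether its reads were left out of the gene counts was not tested. If they were, the counts of Mir450-1 and Mir450-2 lack such reads of miR-450a-5p, so the place of Mir450-1 at the end of the order holds only for the counts as deposited.

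Hairpins were compared for the 5 members other than Mir351, whose hairpin is not among those used. Mir450b shared at most 19 nt with another hairpin (Mir450-1), Mir503 12 nt (Mir17), and Mir322 and Mir542 11 nt each, over the 1005 hairpins of the table. The hairpins of Mir322, Mir503 and Mir542 were 51.6%, 54.9% and 51.8% G and C, against 33.0% for Mir450-1 and 30.5% for Mir450b. Their minimum free energies by RNAfold were -42.9 kcal/mol for Mir322, -41.0 for Mir450-1, -38.1 for Mir542, -37.6 for Mir503 and -31.8 for Mir450b. Among these 5, the 2 lowest belonged to Mir322 and Mir450-1, which are also the longest hairpins at 95 and 91 nt. Divided by length, the energy was lowest for Mir503, at -0.530 kcal/mol per nt. It was -0.452 for Mir322, -0.451 for Mir450-1, -0.448 for Mir542 and -0.388 for Mir450b.

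How much of each seed came from the cluster was asked by summing the counts of all genes with that seed. Counts belong to the hairpin gene and combine both arms, of which 1 carries the seed. The table lists 11 genes with the seed AGCAGCA, and 10 of them are in the count tables, 6 detected. Mir322 held 32.0% of their counts in replicate 1 (95% Clopper-Pearson interval 31.8 to 32.2) and 37.5% in replicate 2 (37.2 to 37.7), a mean of 34.7% ± 3.88 (SD, n = 2). Mir15a held 32.5% and 25.6%, and Mir16-1 held 23.5% and 23.9%.

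Mir322 and Mir15a did not differ beyond their spread. Mir15a stood at 9485 CPM in replicate 1 and 6432 CPM in replicate 2, a mean of 7958 ± 2159 (SD, n = 2). It was above Mir322 in replicate 1 and below it in replicate 2, and the gene that led the group changed with the library. Both libraries of Mir322 lay above those of Mir16-1 (6426 ± 580 CPM), Mir16-2 (1436 ± 155 CPM), Mir15b (1171 ± 103 CPM) and Mir195a (791 ± 107 CPM). Mir16-1 and Mir16-2 share 23 nt that hold the whole of miR-16-5p, so their counts may lack reads that match both, and the share of Mir322 holds for the counts as deposited. The other 4 genes with the seed, Mir195b, Mir6342, Mir6353 and Mir6419, had at most 1 count. Under the shorter seed AGCAGC, bases 2 to 7, Mir503 joins the group with 0.478% ± 0.0581 of its counts, and Mir322 held 34.5%.

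For the seed CCCUGAG the cluster was a minor source. Mir351 held 6.92% of the counts of the 6 genes with this seed in replicate 1 and 6.63% in replicate 2, a mean of 6.78% ± 0.205 (SD, n = 2). Mir125a held 52.6% ± 0.441 at 5732 ± 299 CPM, Mir125b-1 2547 ± 370 CPM and Mir125b-2 1873 ± 76.9 CPM. Both libraries of Mir351 lay below both libraries of each of these 3. The mature miR-125b-5p is the same at Mir125b-1 and Mir125b-2, so the same limit applies to these 2 genes. Mir6367 and Mir6394 had no count.

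**Figure D3:**
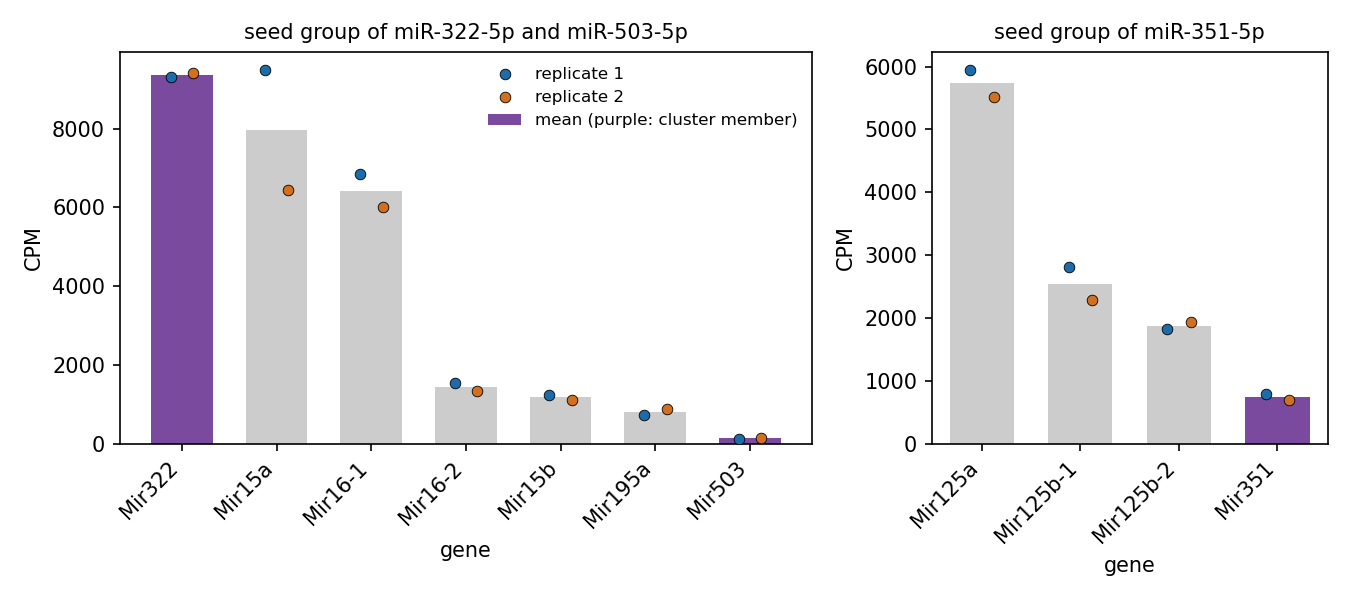
CPM of the detected genes that share a seed with miR-322-5p and miR-503-5p (left, bases 2 to 7) and with miR-351-5p (right, bases 2 to 8). Bars are means of the 2 libraries, purple for cluster members, and points are the libraries. Mir15a was above Mir322 in replicate 1 and below it in replicate 2, and Mir351 was the lowest of its 4.

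The seed group around miR-322-5p was lower in replicate 2, but Mir322 was not. The group sum was 29141 and 25164 CPM in the 2 libraries, a ratio, replicate 2 over 1, of 0.864 (95% counting interval 0.858 to 0.869). The ratio was 0.678 (0.670 to 0.686) for Mir15a and 0.880 (0.869 to 0.891) for Mir16-1. For Mir322 it was 1.01 (1.00 to 1.02), and for Mir195a it was 1.21 (1.17 to 1.26).

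With 1 library on each side there is no replicate check of such ratios, and the calls given here rest on no test. A gene was called different between the libraries when its CPM was at least 1.5-fold apart. None of the 6 members was called, against 40 of 399 detected genes, or 10%. Mir15a, at 0.678, was not called either. The ratios, replicate 2 over 1, were 1.01 for Mir322, 1.03 for Mir503, 0.982 for Mir450b, 0.967 for Mir542, 0.879 for Mir351 and 0.764 for Mir450-1. Their median was 0.975, against 0.940 for all detected genes. The 95% counting interval left out 1 for Mir322 and for Mir351 (0.847 to 0.913), which was the case for no other member, and that of Mir450-1 ran from 0.453 to 1.28.

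The members' ratios were thus near 1 except for Mir351 and the thinly counted Mir450-1. Of the 6, 2 were higher in replicate 2 by CPM. With TMM scaling, median-of-ratios scaling, or totals without Mir99a, the most abundant gene, all log2 ratios rose by 0.08, 0.11 and 0.07, and 4 of 6 were higher in replicate 2. Mir542 and Mir450b changed side, while Mir351 (0.923 to 0.949) and Mir450-1 (0.801 to 0.824) stayed below 1. For the sum of the cluster the ratio was 1.00 (0.991 to 1.01), and without Mir322 it was 0.914 (0.887 to 0.942), from 1162 and 1062 CPM.

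**Figure D4:**
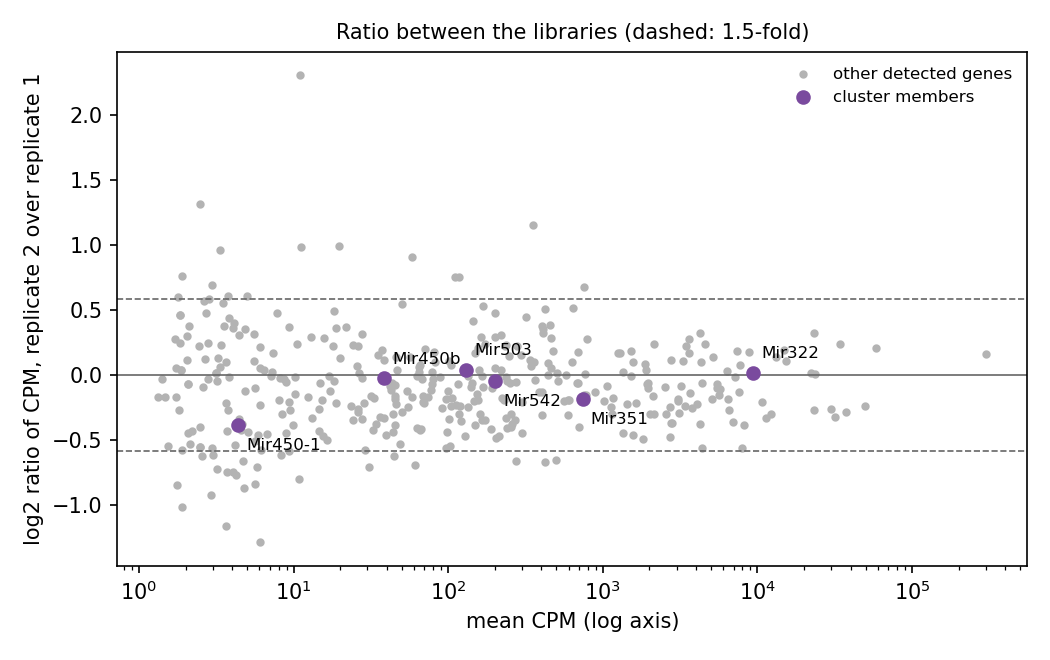
Log2 ratio of CPM, replicate 2 over replicate 1, against mean CPM (log axis) for the 399 detected genes, with the 6 members in purple and 1.5-fold as dashed lines. All 6 members lie between the dashed lines, and Mir450-1, with 35 and 30 counts, lies lowest of them.

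On chromosome X, where 42 of 120 genes were detected, the 6 members held 29.8% of the chromosome's miRNA counts in replicate 1 and 30.6% in replicate 2. Mir322 was the most abundant X-linked gene, ahead of Mir98 (7199 ± 46.2 CPM), a member of the let-7 family, and both of its libraries lay above those of Mir98. Detected X-linked genes on 1 strand with gaps of up to 10 kb formed 8 clusters of 2 or more genes. The sum of the Mir322 cluster, 10477 and 10487 CPM, lay between the 2 libraries of the cluster of Mir98 and Mirlet7f-2 (10408 and 10874 CPM), so these 2 did not differ beyond their spread. This holds for the counts as deposited, since Mirlet7f-2, by its name 1 of several copies, may lack reads that match another locus. The cluster led by Mir188 followed at 3084 ± 99.8 CPM.

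The X-linked paralogue of the miR-17~92 cluster, a group linked to proliferation, lies on the same strand with 305429 nt between Mir106a and Mir450b. Its 6 genes had 1303 and 858 CPM in all in replicates 1 and 2, a ratio of 0.659 (0.638 to 0.680), and 3 of them were called, against 10% of all detected genes. The number called was 2 with TMM and 1 with median-of-ratios scaling. Mir106a, its highest gene, stood at 522 and 327 CPM. Mir19b-2 and Mir92-2 of this cluster, by their names 1 of several copies, may lack reads that match another locus. The values of the cluster therefore hold for the counts as deposited. Beside this, the sum of the Mir322 cluster had a ratio of 1.00, set largely by Mir322, and the sum of its other 5 genes one of 0.914. The difference between the 2 clusters was not tested, and the counting interval of Mir450-1 includes 0.659. The remaining clusters, led by Mir374b, Mir221, Mir224 and Mir1264, summed in that order to 513 ± 85.8, 374 ± 63.1, 153 ± 34.3 and 124 ± 14.4 CPM. Their sums had ratios from 0.726 to 0.848.

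How unequal the genes of a cluster were differed between clusters. By the counts as deposited, Mir322 stood 12.7-fold above the next gene of its cluster. The same fold was 1.42 in the Mir106a cluster and 1.33 in the Mir188 cluster. In the Mir1264 cluster of 3 genes it was 37.9, wider than in the Mir322 cluster. That fold rests on a thinly counted second gene, Mir1912, at a mean of 3.13 CPM.

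**Figure D5:**
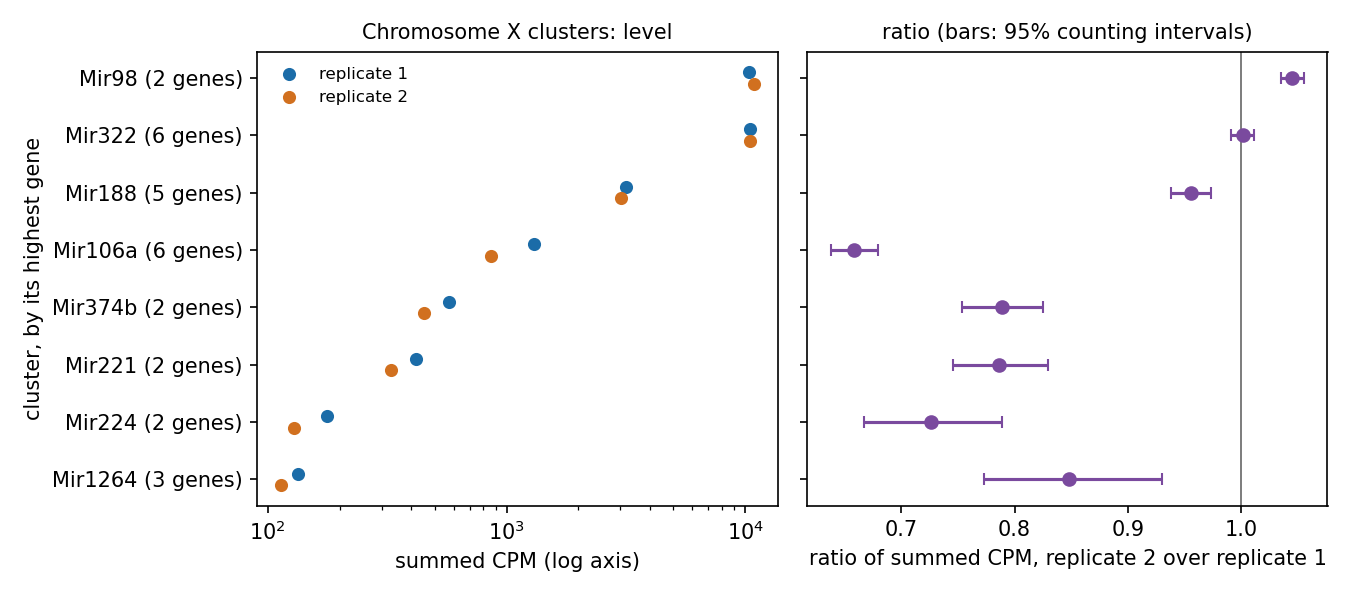
Left, summed CPM (log axis) of the 8 chromosome X clusters in each library, named by their highest gene. Right, the ratio of the sums, replicate 2 over replicate 1, with 95% counting intervals as bars. The ratio of the Mir322 cluster is 1.00 and that of the Mir106a cluster 0.659.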

How the data were processed

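Small RNA libraries from embryonic forebrain, 2 in number, were analysed as 1 group. The authors deposited counts of reads, as whole numbers, for each miRNA gene of the annotation, made from 1 alignment file per library on mm10 with GENCODE annotation M4, per the files' README. The aligner and counter are not stated there or in the labels. Each table has 3 count columns (either strand, strand of the gene, opposite strand) and 4 totals that name no gene, which were kept out of library sizes.

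From the own-strand counts, CPM was computed over all miRNA genes, so that 1 count equals 0.141 and 0.126 CPM in the 2 libraries. Names and positions came from GENCODE M21 on the same assembly (1894 of 1973 IDs matched), and sequences from RefSeq. Detected means 10 or more counts in both libraries. Ratios have exact conditional (Clopper-Pearson) intervals, levels exact Poisson intervals, and errors are SDs over 2 libraries. The ratio and its interval were tested on simulated Poisson counts only, which hold counting error and no further variation between libraries. Software was Python 3.11.15, scipy 1.17.1, RNAfold 2.7.2, and edgeR 4.0.16 for the TMM and median-of-ratios factors.

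The rule for members uses gene names alone, but the cluster and the lists were chosen with earlier results of these data known. Named genes are the members, genes that share their seeds, their neighbours on the strand, the highest gene of each other X-linked cluster, and the genes nearest in log2(CPM + 1) over both libraries (3 for Mir322, 1 for each other member). Alternatives covered scaling, strand, count minimum, call rule, gene length, seed length and leaving out each library. Mir497, Mir9-1, Mir142 and Mir1a-2 were not analysed here as genes of their own.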

Additional observations from a re-analysis of the deposited data

Results flagged for a closer look

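Opposite-strand counts, used above only for the members, Mir450-2 and the either-strand settings, held a signal at a gene of the miR-322-5p seed group. The gene model Mir497b (chr11:70234692-70234816, minus strand) had 2 counts on its own strand in each library and 2142 and 2963 on the opposite strand in replicates 1 and 2, or 303 and 373 CPM, a mean of 338 ± 49.7 (SD, n = 2). This is above the 0.424 and 0.378 CPM that a count of 0 allows. RefSeq places Mir497, whose miR-497a-5p has the seed AGCAGCA, on the plus strand at chr11:70234717-70234800, within that model. With these counts added to the seed group, Mir322 held 34.3% of it in place of 34.7%.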

How the results depend on the processing

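Of 77 alternative values, 60 moved by less than the spread between the libraries or, for counts, by less than 1.5 times. Part of these were fixed in advance. With 2 libraries, leaving out 1 moves a mean level or share by less than its SD. The members have no opposite-strand counts, so their order and the share of Mir322 in the cluster could not change with counts on either strand. The share of the cluster in the miRNA counts, 1.05%, became 0.401% as a share of all reads, 1.5% without Mir99a in the total and 1.03% with counts on either strand, which change the denominator by construction. Among the 36 levels recomputed, 8 moved, 6 of them without Mir99a in the total and the others (Mir322 and Mir450b) with either-strand totals. The number of genes called between the libraries was 40 of 399 tested. It was 179 of 634 with a minimum of 1 count and 11 of 280 with a minimum of 100. At 2-fold it was 6 of 399, and 17 of 399 with Fisher's exact test added, which covers counting error only. None of the members tested was called under any of these, and with a minimum of 100 counts 5 of the 6 were tested, without Mir450-1. The split of all called genes into higher and lower in replicate 2 was 16 and 24 by CPM, 22 and 17 with TMM, 26 and 14 with median-of-ratios factors and 20 and 19 without Mir99a. The rank of Mir322 was 21 per gene length. In the Mir106a cluster the 3 genes called became 2 under TMM, 1 under median-of-ratios scaling and 3 without Mir99a. Rescaling that count, and adding the opposite strand of Mir497b to the seed group, were chosen after seeing the data. No paired analysis was possible because there is 1 group. Without replicate 2 the seed group is led by Mir15a (32.5%) in place of Mir322 (32.0%). With 2 libraries the SD is a coarse measure, counts do not separate arms, and Mir450-1 rests on 35 and 30 counts.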
